A study of Mus musculus with 12 samples.

Results

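The mitochondrially encoded genes are the 37 genes of the mouse mitochondrial genome. They were taken as every counted gene whose symbol begins with mt-, 37 of 39179 genes in all. The set holds 13 protein genes, 2 ribosomal RNA (rRNA) genes and 22 transfer RNA (tRNA) genes. Their RNA was measured by sequencing in calvaria, the flat bones of the skull roof, of C57BL/6 mouse embryos at embryonic day 17.5. The 12 libraries form 4 groups of 3, set by 2 genotypes and 2 treatments. The genotypes were wild type (WT) and Runx2+/-, heterozygous for the gene of the transcription factor that osteoblasts, the bone-forming cells, need to form. The treatments were vehicle and MS-275, also named entinostat, a drug that blocks class I histone deacetylases. In all 4 groups the embryos came from matings at 8 weeks of age. For the MS-275 groups, the dams had received 10 mg/kg by intraperitoneal injection on days 14.5 and 16.5 post coitum. The labels do not say which part of Runx2 is deleted, what the vehicle was, or whether libraries of 1 group stem from different embryos or litters. The p-values below therefore measure the spread between these libraries, which may be partly technical. In whole tissue, more cells that are rich in mitochondrial RNA and more such RNA per cell cannot be told apart.

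Mitochondria carry their own small circular DNA, which is read from both strands into long RNAs that are then cut into single gene products, often at the tRNAs that lie between the other genes. Every protein it encodes is a subunit of the machinery of oxidative phosphorylation: complex I (NADH dehydrogenase), complex III, complex IV (cytochrome c oxidase) or the ATP synthase. The rRNAs and tRNAs serve to translate those proteins inside the mitochondrion, and all the other proteins of the organelle come from nuclear genes. Osteoblasts draw on both glycolysis and oxidative phosphorylation while they lay down bone matrix.

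Some features of the mitochondrial genome may bear on how reads are assigned to the 37 genes, so the sequences at those places are shown first. Whether they set the counts was not tested. Sequences and positions are those of GENCODE M21 (GRCm38), each written on the strand of its gene. The tRNA genes mt-Tt (threonine, chrM:15289-15355, plus strand) and mt-Tp (proline, chrM:15356-15422, minus strand) adjoin one another on opposite strands, and mt-Tc (cysteine, chrM:5192-5257, minus strand) was the other tRNA that had counts in every library. In these 3 the capitals mark the anticodon, found as the middle of a loop closed by a paired stem.
mt-Tt: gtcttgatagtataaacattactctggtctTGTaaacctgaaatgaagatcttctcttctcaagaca
mt-Tp: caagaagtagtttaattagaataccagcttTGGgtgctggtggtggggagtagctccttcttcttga
mt-Tc: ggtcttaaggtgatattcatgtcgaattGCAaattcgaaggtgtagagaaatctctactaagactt
The reading frames of mt-Atp8 and mt-Atp6 share 43 bases at chrM:7927-7969 on the plus strand, and reads inside that stretch belong to both genes. The capitals mark the start codon of mt-Atp6, which lies inside mt-Atp8.
mt-Atp8 and mt-Atp6 overlap: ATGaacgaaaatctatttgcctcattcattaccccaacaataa
The whole of mt-Nd4l (chrM:9877-10173, plus strand, 297 bases) is printed because 294 of its bases recur without a mismatch in the nuclear pseudogene Gm10222 (chr1:24612407-24612700, minus strand). The capitals mark the 7 bases that mt-Nd4l shares with the start of mt-Nd4.
mt-Nd4l: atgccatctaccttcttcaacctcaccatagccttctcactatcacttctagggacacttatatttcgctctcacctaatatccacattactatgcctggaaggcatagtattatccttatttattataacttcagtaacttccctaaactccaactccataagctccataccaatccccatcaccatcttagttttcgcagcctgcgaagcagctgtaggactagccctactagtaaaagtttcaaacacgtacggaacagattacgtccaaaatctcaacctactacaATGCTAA

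Gene counts summed to 13307456 to 19399760 per library. With Runx2 at 42.4 to 46.1 CPM (counts per 1000000 counts of a library, after TMM scaling, which assumes that most genes keep their level) in WT vehicle and 32.8 to 65.3 in Runx2+/- vehicle, the level of the targeted gene did not separate the genotypes. Osteoblast markers were present in all 12 libraries. The library labelled Runx2+/- MS-275 replicate 3 stood apart from the other MS-275 libraries. Its bone marker Bglap was 2.09 CPM, against 79.3 to 202 in the other 5 and 2.89 to 8.61 with vehicle, and its summed epidermal markers were 2021 CPM, against 12.8 to 24.3 in the other 5. WT vehicle replicate 3 and Runx2+/- vehicle replicate 3 stood apart from the other 4 vehicle libraries. Their lens crystallin Cryaa was 5.39 and 5.09 CPM against 369.7 to 509, and their small structural RNA Rn7sk 16.3 and 12.8 CPM against 2.17 to 3.70. With MS-275, Cryaa was at most 0.982 CPM in WT and 0.0929 in Runx2+/- replicates 1 and 2. It was 327 in the library labelled Runx2+/- MS-275 replicate 3. Summed neuronal markers were 156 to 2340 CPM with vehicle and 53.5 to 422 in WT MS-275. In Runx2+/- MS-275 they were 246, 118 and 1552 in replicates 1 to 3. Lens, neuronal and epidermal markers thus differed between treatments in most libraries. What part such tissue plays in the counts below was not tested. Calls on the mitochondrially encoded genes are given with and without the libraries that stood apart. Group means of shares and levels include those libraries. Sex, read from Xist, was not balanced between the groups.

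Mitochondrially encoded genes took a larger part of the gene counts in every MS-275 library than in any vehicle library. Their share was 4.36%, 4.73% and 4.38% in the WT vehicle libraries and 4.44%, 4.32% and 5.52% in the Runx2+/- vehicle libraries. It was 12.7%, 14.6% and 23.0% in WT MS-275 and 24.2%, 16.2% and 9.48% in Runx2+/- MS-275. The lowest of the 6 MS-275 values belongs to the library labelled Runx2+/- MS-275 replicate 3, and it still lies above the highest vehicle value. In WT the group means were 4.49% ± 0.210 (SD, n = 3) with vehicle and 16.8% ± 5.46 with MS-275, and in Runx2+/- they were 4.76% ± 0.664 and 16.6% ± 7.36. The ratio of group means was thus 3.73 in WT and 3.49 in Runx2+/-. Spread between MS-275 libraries of 1 genotype was far wider than counting error, since no 95% Wilson interval reached more than 0.0199 percentage points to either side. The share is a sum over the genes of the list and is given without a test.

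**Figure D1:**
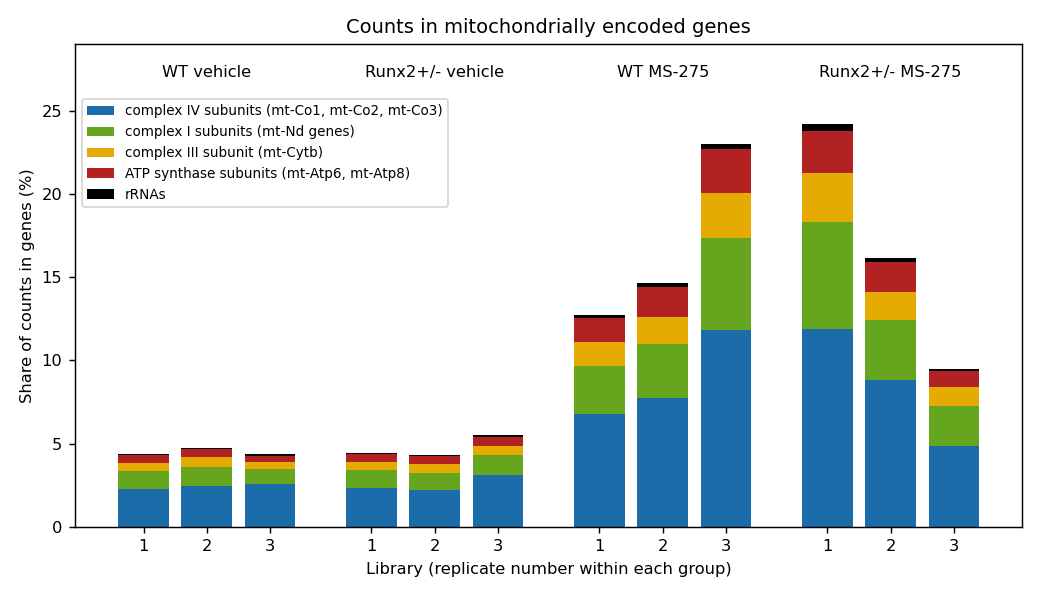
Share of gene counts in mitochondrially encoded genes (y axis, percent) in each of the 12 libraries, by group and replicate. The 6 vehicle libraries lie between 4.32% and 5.52% and the 6 MS-275 libraries between 9.48% and 24.2%.

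All 4 complexes that have mitochondrially encoded subunits took a larger share with MS-275. Complex IV genes, which held the largest part, made up 2.44% ± 0.139 of gene counts in WT vehicle and 8.76% ± 2.68 in WT MS-275, and 2.56% ± 0.506 and 8.51% ± 3.54 in the Runx2+/- groups. For complex I the share was 1.03% ± 0.132 and 3.92% ± 1.45 in WT, and 1.10% ± 0.0812 and 4.16% ± 2.08 in Runx2+/-. The single complex III gene, mt-Cytb, took 0.496% ± 0.0852 and 1.92% ± 0.668 in WT, and 0.508% ± 0.00395 and 1.92% ± 0.923 in Runx2+/-. Both ATP synthase genes together took 0.456% ± 0.0493 and 1.95% ± 0.615 in WT, and 0.502% ± 0.0411 and 1.75% ± 0.754 in Runx2+/-. In each of these 4 classes all 6 MS-275 libraries lay above all 6 vehicle libraries.

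Of the 37 genes, 16 had enough counts for a test: 12 of the 13 protein genes, both rRNA genes and 2 of the 22 tRNA genes. One fit with edgeR's quasi-likelihood test covered 17967 genes, with Benjamini-Hochberg adjustment over all of them and a call at an adjusted p under 0.05. With MS-275, 15 of the 16 rose in WT, and none fell. Among all genes tested, 9.67% were called higher and 9.33% lower in that comparison. The median log2 difference was 2.74 over the 16 genes and -0.13 over all genes tested. In 15 of the 16 the 3 WT MS-275 libraries lay above the 3 WT vehicle libraries, a pattern that 27.3% of all genes tested showed. The exception to the call was mt-Tc (log2 1.63 (SE 1.08), adjusted p = 0.239), and it was also the gene whose groups overlapped.

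Averaged over both genotypes, 15 of the 16 genes rose and none fell, where 21.1% of all genes tested were called higher and 18.0% lower. Their adjusted p was 0.0135 in each case, and that of mt-Tc was 0.107. The median log2 difference was 2.70 over the 16 genes and -0.10 over all genes. In 13 of them all 6 MS-275 libraries lay above all 6 vehicle libraries, which held for 2.61% of all genes tested. The 3 genes that overlapped were mt-Rnr1, mt-Rnr2 and mt-Tc. When libraries were scaled by their total count alone, the median over the 16 genes was 1.86 and 15 were again called, beside a median of -0.74 over all genes, and the same 13 of 16 showed no overlap.

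In Runx2+/- alone the differences were of similar size, but no gene passed the test. The median log2 difference was 2.59 over the 16 genes and -0.04 over all genes, and the adjusted p ran from 0.181 to 0.411. At this threshold 0% of all genes tested were called in either direction. At an unadjusted p under 0.05 stood 15 of the 16, beside 21.0% of all genes. DESeq2 called 15 higher, where it called 4.77% of all genes higher and 2.35% lower. The 3 MS-275 libraries lay above the 3 vehicle libraries for 13 of the 16 genes, against 6.33% of all genes. Without the library labelled Runx2+/- MS-275 replicate 3 the edgeR test called 15 of the 16 higher, with a median of 3.01, while 3367 of 18216 genes were called higher in all.

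The WT call lies close to its threshold. Its adjusted p was 0.0434 for 14 genes and 0.0471 for mt-Rnr2, and it missed the threshold for all 16 genes in 8 of the 12 fits that left out 1 library. Those were the fits without WT vehicle replicate 1 or 2, Runx2+/- vehicle replicate 1 or 2, WT MS-275 replicate 1, 2 or 3, or Runx2+/- MS-275 replicate 2, each with 0 of 16 called. In each of these 8 fits no gene of all those tested was called, in either direction. Across these 8 fits the median log2 difference over the genes stayed between 2.27 and 2.99. With replicate numbers as a block the WT count was also 0, as it was over all genes, and the averaged count was 15, beside 14.9% of all genes called higher and 9.46% lower.

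**Figure D2:**
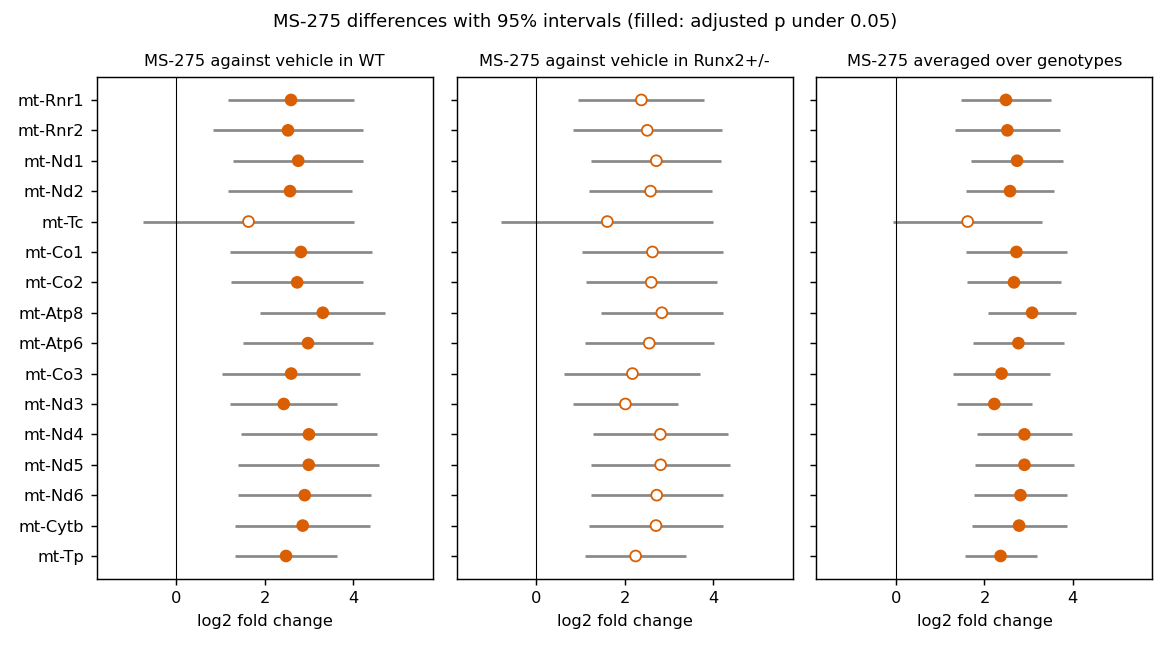
Fitted log2 differences between MS-275 and vehicle for the 16 mitochondrially encoded genes tested (points, in WT, in Runx2+/- and averaged over genotypes; bars are 95% intervals). All points lie above 0, from 1.61 for mt-Tc in Runx2+/- to 3.31 for mt-Atp8 in WT.

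Complex I passes electrons from NADH to ubiquinone, and 6 of its 7 mitochondrially encoded subunits were tested. mt-Nd1 stood, in replicates 1 to 3, at 2080.3, 2401 and 2279 CPM with vehicle in WT and 2181, 2100.0 and 2706 with vehicle in Runx2+/-, and at 9282, 11965 and 24427 with MS-275 in WT and 29399, 11276 and 5274 with MS-275 in Runx2+/-. WT MS-275 replicate 3 and Runx2+/- MS-275 replicate 1 were the highest, the library labelled Runx2+/- MS-275 replicate 3 was the lowest of the MS-275 libraries, and the treatments did not overlap. Averaged over genotypes mt-Nd1 rose by 2.74 (SE 0.47) on the log2 scale. mt-Nd4, which together with mt-Nd1 carried most of the complex I counts, stood at 2682, 3118 and 2118 CPM with vehicle in WT and 2796, 2807 and 2686 with vehicle in Runx2+/-, and at 12989, 16005 and 34279.9 with MS-275 in WT and 36644, 15199 and 6206 with MS-275 in Runx2+/-. It showed the same 2 highest libraries and rose by 2.90 (SE 0.49). mt-Nd5, whose end overlaps the minus-strand gene mt-Nd6 by 14 bases, stood at 1042, 1117 and 1111 CPM with vehicle in WT and 1099, 951 and 1679.7 with vehicle in Runx2+/-, and at 5330.5, 6867 and 13852 with MS-275 in WT and 16333, 7979 and 1923 with MS-275 in Runx2+/-. Its lowest MS-275 value, from the library labelled Runx2+/- MS-275 replicate 3, was close to its highest vehicle value, from Runx2+/- vehicle replicate 3. The averaged difference of mt-Nd5 was 2.90 (SE 0.51).

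mt-Nd6 is the only protein gene on the minus strand of the mitochondrial genome, so it is made from a different precursor RNA than the other complex I genes. It stood at 285, 279 and 332 CPM with vehicle in WT and 299, 234 and 474 with vehicle in Runx2+/-, and at 1314, 1904 and 3482 with MS-275 in WT and 4201, 1937 and 523 with MS-275 in Runx2+/-. Groups were again apart, with the library labelled Runx2+/- MS-275 replicate 3 just above the highest vehicle library, and mt-Nd6 rose by 2.81 (SE 0.48) on average. The ratio of mt-Nd6 to mt-Nd5 counts stayed within 0.243 to 0.299 in all 12 libraries. mt-Nd2 and mt-Nd3 complete the tested complex I genes. mt-Nd2 ranged over 1272 to 1644 CPM with vehicle and 3294 to 17132 with MS-275, and rose by 2.58 (SE 0.45). mt-Nd3 ranged over 374 to 626 CPM with vehicle and 820.4 to 3459 with MS-275, and its difference of 2.22 (SE 0.38) was the smallest among the protein genes.

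Cytochrome b, the product of mt-Cytb, is the core electron carrier of complex III. The gene stood at 3859, 4411 and 3429.6 CPM with vehicle in WT and 3918, 3859 and 4137 with vehicle in Runx2+/-, and at 17695, 22235 and 44874 with MS-275 in WT and 48797, 20507 and 8617 with MS-275 in Runx2+/-. The vehicle libraries were tightly grouped while the MS-275 libraries spread widely, and the treatments did not overlap. mt-Cytb rose by 2.78 (SE 0.49) averaged over genotypes.

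The 3 core subunits of complex IV, which reduces oxygen to water, come from mt-Co1, mt-Co2 and mt-Co3. mt-Co1 stood at 8899, 9540.0 and 9610.1 CPM with vehicle in WT and 9104, 8456 and 11232 with vehicle in Runx2+/-, and at 42374, 53103 and 102103 with MS-275 in WT and 101378, 58621 and 18163 with MS-275 in Runx2+/-. It had the most counts of any gene in 10 of the 12 libraries and ranked no lower than 3 in the rest. It was at its highest in WT MS-275 replicate 3 and Runx2+/- MS-275 replicate 1, with no overlap between treatments, and rose by 2.72 (SE 0.51). mt-Co2 ranged over 3880.0 to 5436 CPM with vehicle and 8570.0 to 48055 with MS-275, and rose by 2.67 (SE 0.48). mt-Co3 stood at 4629.5, 4883 and 7712 CPM with vehicle in WT and 4731, 4417 and 9099.5 with vehicle in Runx2+/-, and at 22104, 29701 and 52399.9 with MS-275 in WT and 47648, 25340.2 and 9519 with MS-275 in Runx2+/-. Here both vehicle replicate 3 libraries were well above the other vehicle libraries, so the lowest MS-275 library cleared the highest vehicle library only narrowly. The averaged difference of mt-Co3 was 2.39 (SE 0.50).

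mt-Atp6 and mt-Atp8 encode membrane subunits of the ATP synthase and are read from the overlapping frames shown above. mt-Atp8 stood at 227, 215 and 169 CPM with vehicle in WT and 234, 265 and 307 with vehicle in Runx2+/-, and at 1255, 1625 and 3196 with MS-275 in WT and 3604, 1648 and 525 with MS-275 in Runx2+/-. The MS-275 libraries all lay above the vehicle libraries, and the 3 Runx2+/- vehicle libraries lay above the 3 WT vehicle libraries. Its averaged difference, 3.08 (SE 0.45), was the highest point estimate of the 16, less than 1 standard error above mt-Nd4 and mt-Nd5. mt-Atp6 ranged over 3225 to 4199 CPM with vehicle and 6913 to 40853 with MS-275, and rose by 2.77 (SE 0.47). The count ratio of mt-Atp8 to mt-Atp6 ran from 0.0525 in WT vehicle replicate 3 to 0.0952 in Runx2+/- MS-275 replicate 1.

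**Figure D3:**
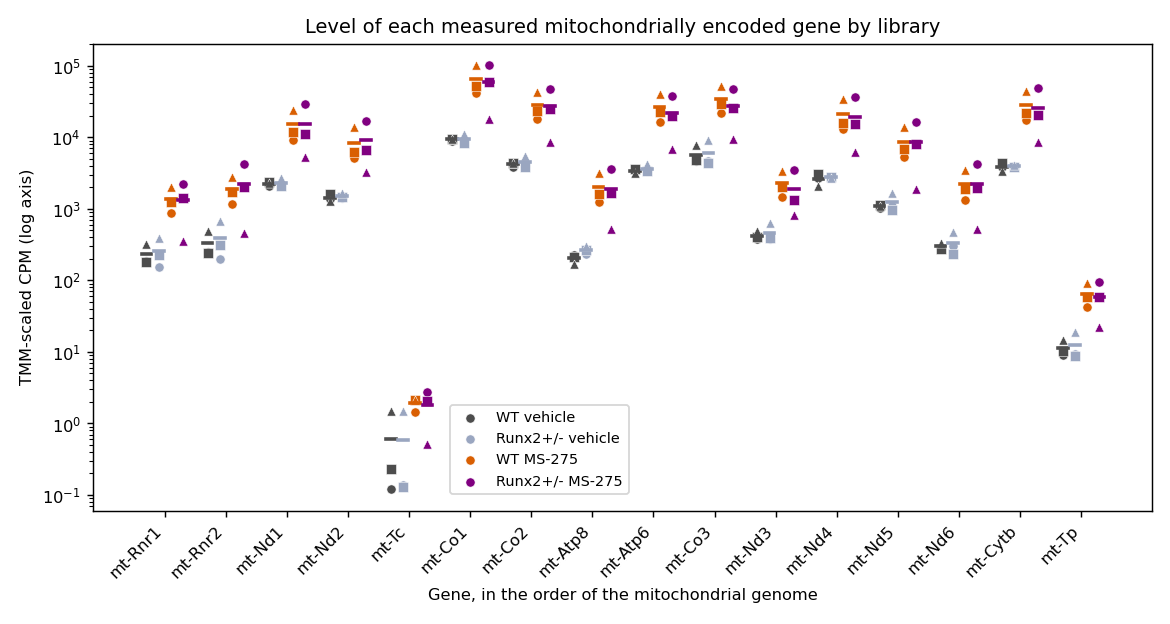
Levels of the 16 mitochondrially encoded genes tested (CPM, log axis) in each library, coloured by group; circles, squares and triangles are replicates 1, 2 and 3 and bars are group means. Vehicle and MS-275 libraries do not overlap in 13 genes and overlap in mt-Rnr1, mt-Rnr2 and mt-Tc.

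The rRNAs of the small and large mitochondrial ribosomal subunits, mt-Rnr1 and mt-Rnr2, were scarce. Together they made up 1.04% to 2.36% of the mitochondrially encoded counts of a library. The library kit starts from total RNA, and the sources used here do not say whether rRNA was depleted, so removal of rRNA and a low level of it cannot be told apart. mt-Rnr1 stood at 185, 184 and 323 CPM with vehicle in WT and 154, 228 and 392 with vehicle in Runx2+/-, and at 878, 1247 and 2048 with MS-275 in WT and 2237, 1436 and 355 with MS-275 in Runx2+/-. mt-Rnr2 stood at 249, 245 and 492 CPM with vehicle in WT and 199, 313 and 677 with vehicle in Runx2+/-, and at 1186, 1698 and 2792 with MS-275 in WT and 4268, 2049.9 and 466 with MS-275 in Runx2+/-. For both, the vehicle replicate 3 libraries were the highest of their groups, and the library labelled Runx2+/- MS-275 replicate 3 lay within the vehicle range. mt-Rnr1 rose by 2.49 (SE 0.46) and mt-Rnr2 by 2.52 (SE 0.54) averaged over genotypes.

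Counts of tRNA genes differed by strand. All 14 tRNA genes on the plus strand had no count in any library. By counting error alone this allows up to 0.120 to 0.279 CPM, the worth of 3 counts in a library. Reads left out as ambiguous between neighbouring genes are not covered by that bound. On the minus strand 4 of 8 tRNA genes had counts, and mt-Tp and mt-Tc had them in every library. The plus-strand neighbour of mt-Tp, mt-Tt, is of the same length and adjoins it, yet it had 0 counts while mt-Tp had 180 to 1065. The sources used here do not say whether the counting used strand. mt-Cytb (chrM:14145-15288), on the plus strand, ends directly before mt-Tt. How far mt-Tp counts come from longer precursor RNA of the minus strand or from RNA of the plus strand was not tested. mt-Tn had at most 1 count, in 3 libraries, and mt-Te had 1 count in 1 library.

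mt-Tp stood at 9.09, 10.4 and 14.9 CPM with vehicle in WT and 9.34, 8.83 and 18.7 with vehicle in Runx2+/-, and at 41.9, 58.0 and 91.9 with MS-275 in WT and 94.1, 59.2 and 22.3 with MS-275 in Runx2+/-. No treatment overlap was seen, and mt-Tp rose by 2.36 (SE 0.37), so its difference was of the order of those of the protein genes. mt-Tc had 3, 4 and 30 counts in WT vehicle and 3, 3 and 29 in Runx2+/- vehicle. With MS-275 it had 22, 26 and 25 counts in WT and 30, 26 and 12 in Runx2+/-. Thus 4 vehicle libraries had next to none, while both vehicle replicate 3 libraries were level with the highest MS-275 libraries. A fit without those 2 vehicle libraries and the library labelled Runx2+/- MS-275 replicate 3 was chosen after seeing the data. There mt-Tc was called higher as well, and 16 of 16 genes passed in WT, in Runx2+/- and on average. Of all genes tested, 28.5% were called higher and 31.8% lower in WT, 23.9% and 28.9% in Runx2+/-, and 31.6% and 38.2% on average. The call of mt-Tc rests on leaving out the 2 vehicle libraries in which it was high.

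mt-Nd4l, the remaining complex I gene, had only 0 to 6 counts in a library and was not tested. Its nuclear twin Gm10222, identical over the 294 bases of its length, had 0 to 20 counts. Reads that match both cannot be assigned to 1 of them. A difference in mt-Nd4l was not detectable at these counts. A search of the annotated transcripts (at least 90% identity over at least 60 bases) found 17 nuclear copies of 11 mitochondrially encoded genes, and 9 of the copies were counted. The other 4 genes with identical copies of 200 bases or more have them on the same stretch of chromosome 1: mt-Atp6 (Gm10925, 678 bases), mt-Co2 (Gm28661, 681 bases), mt-Co3 (Gm28437, 783 bases) and mt-Nd4 (Gm28439, 876 bases). Reads shared with a copy may be dropped or split by the counting, so the levels of these genes are uncertain to that extent. Those copies were not analysed here, and the lowest count of these genes in any library was 62375 for mt-Atp6, 74860 for mt-Co2, 84681 for mt-Co3 and 42834 for mt-Nd4. On that stretch mt-Nd3 and mt-Co1 have near-identical copies, Gm28438 (99.7% over 345 bases) and Gm29216 (99.8% over 483 bases). Neither copy was among the 9 counted, and the levels of mt-Nd3 and mt-Co1 carry the same uncertainty. Among the 9 counted copies, Gm10222 was the only one identical to its mitochondrial gene. The mt-Co1 copy Gm13340 (97.6% identity) had 22 to 205 counts and the mt-Co2 copy Gm13341 (95.9%) had 7 to 89, where mt-Co1 itself had at least 165436 counts in a library.

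Compared per kilobase of annotated gene, the order of the levels was led by complex IV in all 4 groups. In the WT vehicle group mt-Co3 averaged 7324 ± 2183 CPM per kb (SD, n = 3), mt-Co2 6174 ± 405, mt-Co1 6052 ± 254 and mt-Atp6 4978 ± 278. The first 3 do not differ beyond their spread. Next came mt-Cytb at 3409 ± 430.0, mt-Nd1 at 2355 ± 169 and mt-Nd4 at 1915 ± 364 CPM per kb, and mt-Nd1 and mt-Nd4 lie within their joint spread. mt-Nd2, mt-Nd3 and mt-Atp8 followed, between 1361 ± 169.7 and 999 ± 149 CPM per kb. mt-Nd5, at 598 ± 22.8, and mt-Nd6, at 575 ± 55.9, did not differ beyond their spread. Below them lay mt-Rnr1 at 241 ± 83.4, mt-Rnr2 at 208 ± 89.5, mt-Tp at 171 ± 45.4 and mt-Tc at 9.26 ± 11.5.

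With MS-275 this order was kept with few exchanges. mt-Co1, mt-Co2, mt-Co3 and mt-Atp6 held the first 4 places in every group, and mt-Cytb, mt-Nd1 and mt-Nd4 the next 3. mt-Atp8 moved from place 10 in both vehicle groups to place 8 in both MS-275 groups, ahead of mt-Nd2 and mt-Nd3. In WT MS-275 it stood at 9927 ± 5051 CPM per kb, beside 8087 ± 4584 for mt-Nd2, which is within the spread.

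Taking each gene as a part of the mitochondrially encoded counts removes the total and leaves the composition. mt-Co1 made up 24.8% to 29.5% of these counts and mt-Co2 11.2% to 12.4% in all 12 libraries. WT vehicle replicate 3 and Runx2+/- vehicle replicate 3 differed from the other 10 libraries in composition. In 9 of the 16 genes both of these libraries lay outside the range of the other 10: mt-Rnr1, mt-Rnr2, mt-Tc, mt-Co3, mt-Nd3 and mt-Tp above it, and mt-Atp6, mt-Nd4 and mt-Cytb below it. mt-Co3 took 20.8% and 20.1% there and 11.9% to 14.8% elsewhere. mt-Nd4 took 5.72% and 5.93% there and 7.65% to 9.14% elsewhere, so the ratio of mt-Co3 to mt-Nd4 counts was 3.64 and 3.39, against 1.30 to 1.86. The same 2 libraries were the vehicle libraries with high Rn7sk and low Cryaa given above, and their summed neuronal markers were 156 and 346 CPM against 1046 to 2340 in the other vehicle libraries. What part these play in the composition was not tested. The mean part of mt-Atp8 was lowest in WT vehicle, with 1 library inside the Runx2+/- vehicle range: in WT it took 0.578% ± 0.114 (SD, n = 3) with vehicle and 0.816% ± 0.0128 with MS-275, and in Runx2+/- 0.725% ± 0.0725 and 0.822% ± 0.0804.

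**Figure D4:**
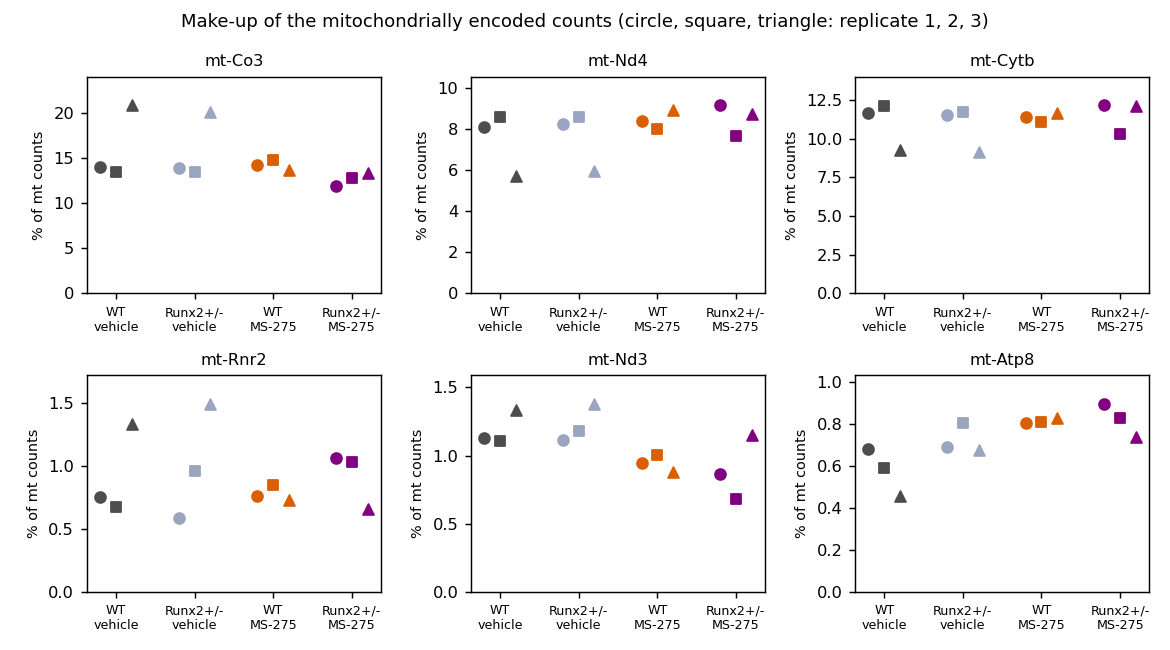
Share of mt-Co3, mt-Nd4, mt-Cytb, mt-Rnr2, mt-Nd3 and mt-Atp8 in the mitochondrially encoded counts (percent), shown per library. WT vehicle replicate 3 and Runx2+/- vehicle replicate 3 both lie outside the other 10 libraries in all of these except mt-Atp8. For mt-Co3 they are at 20.8% and 20.1% against 11.9% to 14.8%.

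No difference between genotypes was detected in the mitochondrially encoded genes. With vehicle, none of the 16 was called between Runx2+/- and WT, where 0% of all genes tested were called, and none stood at an unadjusted p under 0.05, against 0.306% of all genes. DESeq2 called none of the 16 either. The median log2 difference was 0.10 over the 16 genes and -0.01 over all genes. The one gene whose 3 Runx2+/- libraries all lay above the 3 WT libraries was mt-Atp8 (log2 0.40, 95% interval -0.90 to 1.69), beside 2.69% of all genes tested. With MS-275, none of the 16 was called by edgeR or DESeq2, where edgeR called 0% of all genes and DESeq2 called 3.14% higher and 0.768% lower. None had an unadjusted p under 0.05, against 15.8% of all genes, and the median difference was -0.09 beside 0.05. The 95% interval for mt-Co1 ran from -1.47 to 1.54 on the log2 scale with vehicle and from -1.65 to 1.36 with MS-275, so differences between the genotypes of up to about that size could not be seen with 3 libraries a group.

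The drug difference of each gene was also compared between the genotypes, as an interaction term in the same fit. None of the 16 was called by edgeR or DESeq2, 0% of all genes were called by edgeR, 0.211% were called higher and 0% lower by DESeq2, and none of the 16 had an unadjusted p under 0.05, against 5.30% of all genes. The median interaction was -0.18 over the 16 genes and 0.06 over all genes, with mt-Co1 at -0.19 (95% interval -2.31 to 1.94). Its sign rests on single libraries: leaving out WT MS-275 replicate 3 gave a median of 0.28, leaving out Runx2+/- MS-275 replicate 3 gave 0.26, and leaving out Runx2+/- MS-275 replicate 1 gave -0.96. The call in WT and its absence in Runx2+/- are thus not shown to differ.

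Nuclear genes supply the other subunits of the same complexes, and they were read in the same fit, averaged over genotypes. Of 36 nuclear complex I subunits tested, 29 rose and none fell, with a median log2 difference of 0.95 beside -0.10 over all genes. The counts of this and the following lists stand beside 21.1% of all genes called higher and 18.0% lower in that comparison. Ndufa9, a subunit near the join of the membrane and matrix arms, went from 59.6 ± 6.88 CPM in WT vehicle to 175 ± 59.8 in WT MS-275, and its averaged difference was 1.64 (SE 0.29). Ndufb5 rose by 1.50 (SE 0.28) and Ndufb3 by 1.33 (SE 0.26). Complex II has no mitochondrially encoded subunit, and 3 of its 4 genes rose: Sdhd by 1.30 (SE 0.28), Sdhb by 1.02 (SE 0.23) and the flavoprotein gene Sdha by 0.49 (SE 0.15). Among 9 complex III genes 7 rose and 1 fell, with a median of 0.80; with replicate numbers as a block 4 rose and none fell. Uqcrc2 rose by 1.56 (SE 0.27), Uqcrb by 1.56 (SE 0.34) and Uqcr10 by 1.42 (SE 0.31). The gene that fell, Uqcrc1 (-0.50, adjusted p = 0.0291 in edgeR's test), encodes the other core protein of that complex and was named after its value was seen.

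In complex IV 11 of 16 nuclear genes rose and none fell, with a median of 1.09. Cox6b1 rose by 1.46 (SE 0.31), Cox7c by 1.41 (SE 0.33) and Cox6a1 by 1.07 (SE 0.27). In the ATP synthase 10 of 15 rose and none fell, with a median of 1.03, and Atp5g2, which encodes the ring subunit c, rose by 1.76 (SE 0.31). The other examples from the ATP synthase were Atp5h at 1.47 (SE 0.31) and Atp5c1, the central stalk subunit, at 1.35 (SE 0.29). The proteins of the mitochondrial ribosome, which translate only mitochondrially encoded mRNA, gave 42 of 75 higher and none lower, with a median of 0.71. Mrpl42 rose by 1.71 (SE 0.31), Mrpl35 by 1.39 (SE 0.27) and Mrps31 by 1.17 (SE 0.23). Every one of these list medians is below the smallest difference among the mitochondrially encoded protein genes, 2.22; the difference between the lists was not tested.

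The counts for these nuclear lists depend on how libraries are scaled. Scaled by total count alone, 4.74% of all genes tested were called higher and 45.3% lower, with a median of -0.74. In that scaling 14 nuclear complex I genes were called higher and 3 lower, with a median of 0.19. The complex IV list then had 2 higher and none lower (median 0.31), the ATP synthase list 5 and 1 (0.26), and complex III 4 and 2 (0.05). The mitochondrial ribosomal list had 9 higher and 10 lower, with a median of -0.03. In the same scaling 15 of the 16 mitochondrially encoded genes were called higher, with a median of 1.86. Of these lists only the ribosomal one had a median that turned below 0. Without the 3 libraries that stood apart, in the usual scaling, 33 complex I, 14 complex IV, 14 ATP synthase and 59 ribosomal genes were called higher, where 31.6% of all genes tested were called higher and 38.2% lower.

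**Figure D5:**
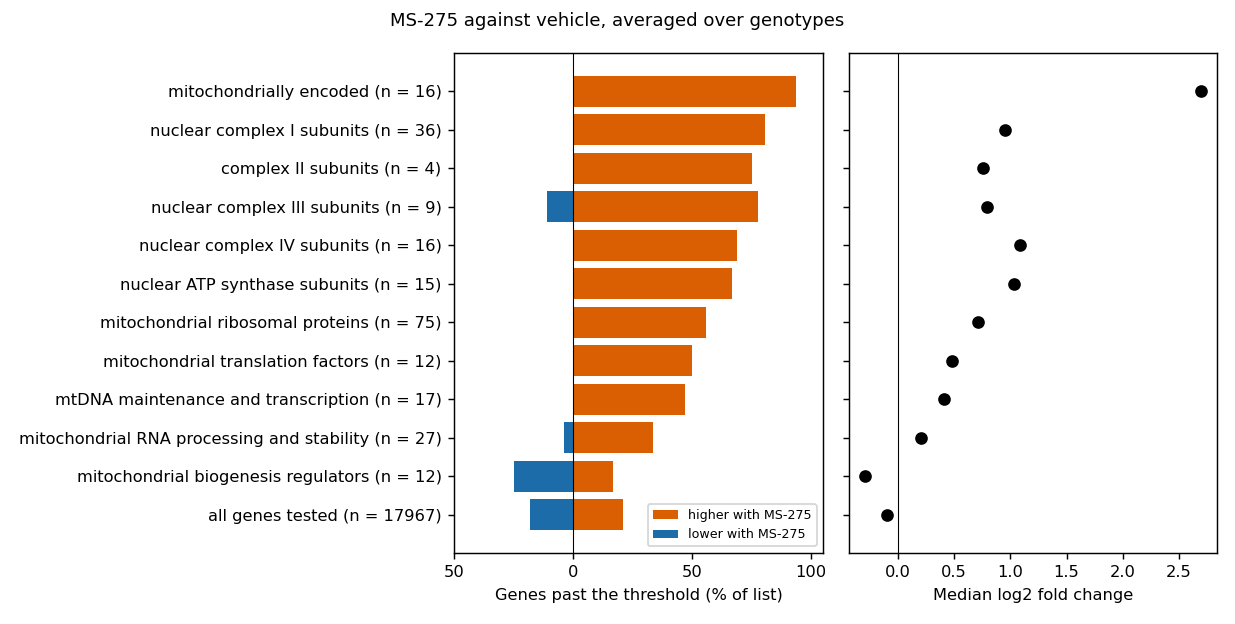
Median log2 difference between MS-275 and vehicle, averaged over genotypes, for the mitochondrially encoded genes and for lists of nuclear genes of mitochondrial function, beside all genes tested. The mitochondrially encoded genes lie at 2.70, the nuclear complex IV list at 1.09 and all genes tested at -0.10.

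Genes that copy and maintain mitochondrial DNA gave 8 of 17 higher and none lower (median 0.41). Tfam, which packages mitochondrial DNA and starts its transcription, went from 40.5 ± 4.98 CPM in WT vehicle to 63.7 ± 10.2 in WT MS-275 and from 38.9 ± 7.29 to 49.1 ± 14.5 in Runx2+/-, an averaged difference of 0.49 (SE 0.17) with adjusted p = 0.0399 in edgeR's test. Tfb2m, the promoter-melting factor, rose by 0.82 (SE 0.17), the elongation factor gene Tefm by 0.88 (SE 0.23) and Mterf4 by 0.68 (SE 0.17). Polrmt, the mitochondrial RNA polymerase itself, was not called, at -0.52 (SE 0.24) and an adjusted p of 0.101 in the same test. In total-count scaling none of the 17 was called higher and 3 were called lower (median -0.27), beside 45.3% of all genes lower, with Tfam at -0.22 and Polrmt at -1.08.

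Among 27 genes that process or stabilise mitochondrial RNA, 9 rose and 1 fell (median 0.20). Pnpt1, an exoribonuclease, rose by 0.89 (SE 0.17), Ptcd3, a protein of the mitochondrial ribosome, by 0.69 (SE 0.15), and Ptcd2 by 0.82 (SE 0.18). Lrpprc, which stabilises mitochondrial mRNA, was not called, at 0.12 (SE 0.14) and an adjusted p of 0.484 in edgeR's test. The gene that fell was Tbrg4 (-0.57, adjusted p = 0.0358 in that test), named after its value was seen. Mitochondrial translation factors gave 6 of 12 higher and none lower (median 0.48), with Mtif2 at 0.73 (SE 0.13), Mtrf1l at 0.67 (SE 0.14) and Mtrf1 at 1.16 (SE 0.25). Scaled by total count alone, the RNA processing list had none higher and 10 lower (median -0.45), and the translation factors none higher and 2 lower (median -0.22), beside 45.3% of all genes lower.

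Regulators of mitochondrial biogenesis in the nucleus had a median of -0.29, and of 12 measured 2 rose and 3 fell, near the shares of all genes called (21.1% and 18.0%). The orphan receptor genes Esrrg and Esrrb fell by 1.53 (SE 0.35) and 2.69 (SE 0.82) on the log2 scale. Pprc1 was the third (-0.41). Gabpa rose by 0.41 (SE 0.12) and Nfe2l2 by 0.73, the latter and Pprc1 being named after their values were seen. Ppargc1a, the coactivator best known for driving mitochondrial biogenesis, was at 12.0 ± 6.95 CPM in WT vehicle and 3.31 ± 0.499 in WT MS-275, and at 14.1 ± 6.59 and 11.8 ± 6.79 in Runx2+/-. Its averaged difference of -1.05 (SE 0.39) was not called (adjusted p = 0.0525 in edgeR's test), while in WT alone it fell (adjusted p = 0.0476). With replicate numbers as a block none of the 12 rose and 1 fell. Scaled by total count alone, none was called higher and 8 lower (median -0.91), where 45.3% of all genes were called lower and the median over all genes was -0.74.

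The counts for the nuclear lists also rest on single libraries. With 1 library left out at a time, the genes called higher numbered 21 to 31 for complex I, 4 to 7 for complex III, 6 to 13 for complex IV, 8 to 12 for the ATP synthase and 25 to 50 for the mitochondrial ribosome. The complex IV count was 7 without Runx2+/- vehicle replicate 1 or 2, WT MS-275 replicate 3 or WT vehicle replicate 2, and it was 6 when WT vehicle replicate 1 was left out. The ribosomal count was 26 when either WT MS-275 replicate 3 or WT vehicle replicate 2 was left out, and 25 when WT vehicle replicate 1 was. For complex III it was 4 without any one of WT vehicle replicates 1 and 2, Runx2+/- vehicle replicates 1 and 2, the WT MS-275 replicates, and Runx2+/- MS-275 replicates 1 and 2. The list for mitochondrial DNA and its transcription had 3 to 5 genes called higher, in place of 8, without any one of those same libraries except WT MS-275 replicate 1. Without any one of the latter libraries none of the biogenesis regulators was called higher, and without WT MS-275 replicate 1 only 1 was. Without the library labelled Runx2+/- MS-275 replicate 3 the biogenesis regulators called lower numbered 5 in place of 3, and the RNA processing genes called lower 5 in place of 1; in the other fits 1 to 3 biogenesis regulators were called lower. Over the same fits 11.8% to 28.2% of all genes tested were called higher and 7.81% to 33.5% lower. Of the nuclear genes named above as called, 8 lost the call in some of these fits. Uqcrc1 was not called in 6 of the 12 fits, those without WT vehicle replicate 2, Runx2+/- vehicle replicate 1, WT MS-275 replicate 2 or 3, or Runx2+/- MS-275 replicate 1 or 2, and not with the replicate block (adjusted p = 0.0613 in edgeR's test). Tbrg4 was called in only 3 of the 12 and Sdha in 3, both with the block as well. Tfam was called in 4 of the 12 and not with the block (adjusted p = 0.0741). Esrrb was called in 6, Gabpa in 4, Nfe2l2 in 3 and Pprc1 in 2, none of them with the block. In all 12 fits the mitochondrially encoded genes gave 15 or 16 of 16.

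Marker genes of the cell types of the skull were read in the same averaged comparison, where 21.1% of all genes were called higher and 18.0% lower. The 10 osteoblast markers summed to 10577 to 15435 CPM in WT vehicle and 8303 to 22101 in Runx2+/- vehicle, and to 64885 to 81056 in WT MS-275. In Runx2+/- MS-275 they summed to 3523 to 69787, the lowest being the library labelled replicate 3. Of the 10, 9 were called higher and none lower. All 12 epidermal markers were called lower, with sums of 1321 to 4407 CPM over the vehicle libraries and 12.8 to 24.3 over the MS-275 libraries other than the one labelled Runx2+/- MS-275 replicate 3. Of 7 macrophage markers 6 were called higher, and of 9 osteoclast markers 2, near the share of all genes. The 13 skeletal muscle markers, from a tissue rich in mitochondria, gave 1 higher and 5 lower. In WT they summed to 3831 to 7215 CPM with vehicle and 606 to 3280 with MS-275, without overlap. In Runx2+/- the sums overlapped, at 2044 to 6548 with vehicle and 4854 to 6283 with MS-275. The 5 markers of cardiac and red muscle gave 0 higher and 1 lower. They summed to 51.5 to 154 CPM with vehicle and 21.0 to 81.4 with MS-275 in WT, and to 42.9 to 90.8 and 84.6 to 230 in Runx2+/-. Erythroid markers, from cells that lose their mitochondria only as they mature, gave 1 of 9 higher and 1 lower. They summed to 2534 to 8791 CPM with vehicle and 2312 to 27663 with MS-275. The sums were 27663 in WT MS-275 replicate 3, 23186 in Runx2+/- MS-275 replicate 1 and 2312 in the library labelled Runx2+/- MS-275 replicate 3. The first 2 of these libraries had the highest mitochondrially encoded shares and the last the lowest share with MS-275. The erythroid sum of the last lay below all vehicle sums, though its mitochondrially encoded share lay above all vehicle shares. Osteoblast sums of the first 2 were 64885 and 69787 CPM, between 40047 in Runx2+/- MS-275 replicate 2 and 81056 in WT MS-275 replicate 2. No marker of these lists was at 0 in every library. What part these cell types play in the mitochondrially encoded counts was not tested. Of the uniquely aligned reads, those outside any gene were 10.5% to 16.8% with vehicle and 5.21% to 8.65% with MS-275, except 22.2% in the library labelled Runx2+/- MS-275 replicate 3. Counted against all uniquely aligned reads instead of gene counts, the mitochondrially encoded share was 3.72% ± 0.141 in WT vehicle and 15.0% ± 4.75 in WT MS-275, and 3.88% ± 0.571 and 14.2% ± 7.25 in the Runx2+/- groups.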

How the data were processed

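Total RNA of calvaria was sequenced from stranded libraries, per the labels' protocols. The authors deposited whole-number read counts per mouse Ensembl gene without normalization, 1 table per library. They used Trimmomatic, Bowtie2, SAMtools and HTSeq, per the submitters' processing notes. Versions, handling of reads with several alignments, and the strand setting of the counting are not given in the sources used here. The notes name GRCh38.p7, a human build, while the identifiers are mouse, so positions and sequences come from GENCODE M21 (GRCm38). Entries that name no gene were left out of every library size and test: reads in no gene were 5.21% to 22.2% and ambiguous reads 3.25% to 4.78% of uniquely aligned reads. Of 39179 identifiers 37607 had a symbol.

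The counts of all 12 libraries were fitted together in edgeR 4.0.16 (R 4.3.3): filterByExpr over the 4 groups, TMM factors of 0.598 to 1.33, 1 mean per group, robust quasi-likelihood fit with 8 residual degrees of freedom, common biological coefficient of variation 0.442. Standard errors of log2 differences are the difference divided by the square root of F. CPM values use TMM-scaled library sizes. Intervals of log2 differences come from the fit and include the spread between libraries. Wilson intervals of shares and the floor of 3 counts describe counting error alone, as the reads carry no molecular identifiers that would separate molecules from PCR copies. Nuclear copies were sought with blastn 2.17.0. The script was tested on simulated data with known changes. Those changes were in WT MS-275 alone, and no simulated library stood apart. The simulation therefore gives no error rates for these data.

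Genes and lists were chosen with earlier results of these data known. Every mitochondrially encoded gene is accounted for. From each other list the 3 genes with the smallest p in the averaged comparison are named, plus Tfam, Polrmt, Lrpprc and Ppargc1a; other names are stated as chosen after their values were seen. Alternatives were other scalings, no low-count filter, DESeq2 1.42.0, limma-voom (limma 3.58.1), a replicate block, and leaving out each library. The labels give replicate numbers but no batch, litter or day. In the vehicle groups same-numbered libraries deviated together (correlation 0.220, 0.752 and 0.812 for replicates 1 to 3), which meets the limit set here for pairing (every pair above 0.1); between the other groups at least 1 pair was below 0.1. The fit reported has no block, and the block entered as an alternative.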

Additional observations from a re-analysis of the deposited data

How the results depend on the processing

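Averaged over genotypes, 15 or 16 of the 16 mitochondrially encoded genes were called higher in all 20 alternatives, with a median log2 difference from 1.86 (total-count scaling) to 2.97. Over these alternatives 4.74% to 31.6% of all genes tested were called higher and 7.81% to 45.3% lower. The WT count of 15 was 0 without a low-count filter, 0 with limma-voom and 0 with the replicate block. Of all genes tested 0% were called there, except for 0.00557% called lower with limma-voom. With single libraries left out the WT count ranged from 0 to 15, beside 0% to 22.2% of all genes higher and 0% to 24.4% lower. In all of these fits the mitochondrially encoded genes stayed higher. The Runx2+/- count of 0 was 15 in DESeq2, where 4.77% of all genes were called higher and 2.35% lower. It ranged from 0 to 15 over single libraries left out, beside 0% to 18.5% of all genes higher and 0% to 14.2% lower. It was 16 without replicate 3 of both vehicle groups and of Runx2+/- MS-275, an alternative chosen after seeing the data. There 23.9% of all genes were called higher and 28.9% lower. The Runx2+/- median was 1.81 in total-count scaling and 1.85 without Runx2+/- MS-275 replicate 1. Both genotype comparisons and the interaction gave 0 of 16 in every alternative. The replicate block changed no other call on these genes. Among its changes to the nuclear lists, complex III genes went from 7 to 4 higher and Tfam lost its call. Biogenesis regulators went from 3 to 1 lower and from 2 to 0 higher. As a share of uniquely aligned reads the vehicle groups were at 3.72% (WT) and 3.88% (Runx2+/-), because reads in no gene enter the total. Without a low-count filter 29218 genes entered the adjustment; otherwise the cause of a lost or gained call was not tested. Groups hold 3 libraries each, and low counts limit what can be read from mt-Tc, mt-Nd4l and the tRNA genes that had too few counts for a test.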
